A study of Daphnia magna with 20 samples.

Results

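The 200 genes described here were transcribed in *Daphnia magna* from late embryos to adults of both sexes and were low in early embryos alone. *D. magna* is a freshwater crustacean that reproduces clonally, and its whole-body RNA was hybridised to single-colour arrays carrying up to 4 probes for each gene model. The genes were picked from the deposited expression values in 4 steps. A gene needed 3 or more probes, and its value in a stage was the median over its probes of the mean over the arrays of that stage. The 7 stage values were sorted, and the widest gap between neighbouring values had to leave the early embryos alone below it. At least 2 probes had to be marked well above background by the scanner software on at least 2 arrays of each of the other 6 stages. Of 41316 gene models with probes, 40786 had 3 or more probes, 3087 of these had the early embryos alone below the widest gap, and 1451 of them were detected in all other stages. The 200 with the widest gap were kept.

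The study compared 7 stages of a single clone, Clone F, kept in parthenogenetic culture. Early embryos (E1, n = 3) were under 12 h old by the labels, when the egg is filled with yolk granules and oil drops, and late embryos (E3, n = 3) were at 60 h, shortly before release from the brood pouch. Juveniles (J, n = 3) were 4 days old with no visible ovary. Reproductive females at the beginning (F1), in the middle (F2) and at the end (F3) of the cycle between 2 moults (n = 3 each) were 15, 16 and 18 days old by the labels, and their broods were flushed out before collection. Males (M, n = 2) were 16 days old by the labels and were the sons of mothers exposed to methyl farnesoate, the crustacean juvenile hormone, which no other group had received. The study's methods and design text give partly different ages for embryos, females and males. The study calls its replicates biological, but the labels do not say whether arrays of a stage came from separate cultures, and the p-values measure only the spread between these samples, which may in part be technical.

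In animals, the egg is stocked with maternal mRNA, and the embryo's own genome becomes active only after the first divisions. The RNA of a freshly laid egg therefore reflects what the ovary supplied, whereas transcripts of differentiated tissues such as cuticle, gut, muscle and nerve accumulate as organs form. In *Daphnia*, the oocytes of the next clutch are provisioned while the previous clutch develops in the brood pouch. The study annotated many of its gene models, but that annotation was not used here, and the tables used here matched none of the transcript-assembly identifiers to a gene name, so the 200 genes are described by their behaviour and not by their functions. Probe sequences were not used here.

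Depth and quality differed among the 20 arrays, which lay on 5 slides of 4. The share of spots well above background was 17.1 to 25.0% on the slide scanned first and 46.6 to 80.5% on the other slides. That first slide held the second E1 array, the second E3 array, F1 replicate 3 and the first male array. Replicate arrays of a stage correlated with r between 0.896 and 0.992 over the genes, and no pair was identical. The rule asked for detection on both male arrays, the first of which was on that slide.

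The level of the 200 genes in E1 was near the level of probes that match no transcript. On the scale of normalised log2 signal, their median level was 5.19 in E1, with genes between 2.95 and 12.06. It was 12.06 in E3 and 11.67 in J. Among females the median was 11.15 (F1), 11.25 (F2) and 10.95 (F3), and males had 12.26. On the single E1 arrays the median was 5.62, 4.77 and 5.89, and the 95th percentile of the 2532 random-sequence probes was 6.27, 7.47 and 5.59 on the same arrays. The other 7323 genes with 3 or more probes and the same detection outside E1 had a median level of 10.14 in E1 and between 10.08 and 10.21 in the other stages. The 200 genes were thus brighter than those genes outside E1, which a wide gap above a dim stage requires.

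**Figure D1:**
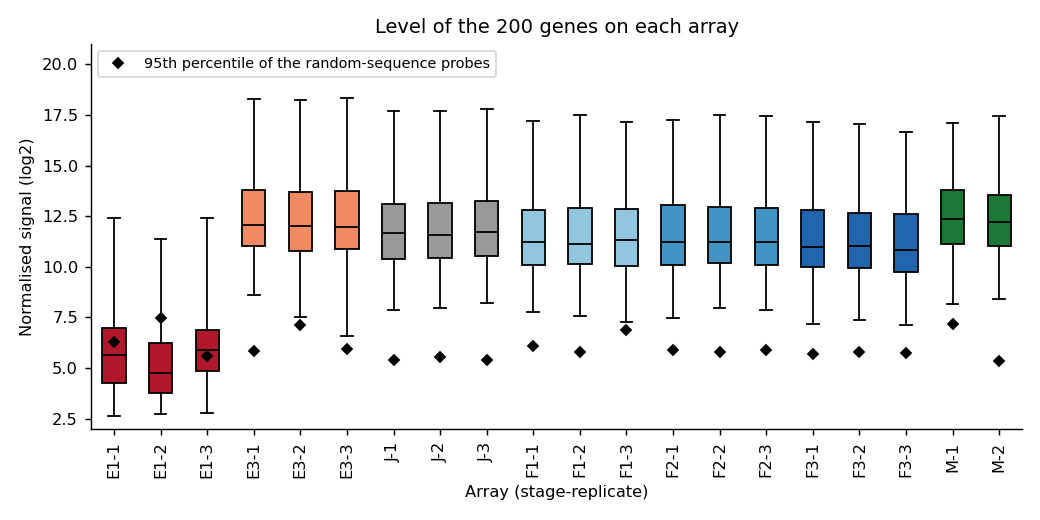
Normalised log2 signal of the 200 genes on each of the 20 arrays, coloured by stage, with boxes for the quartiles, a line for the median and whiskers to the lowest and highest gene. Diamonds mark the 95th percentile of the random-sequence probes, which lies within or above the boxes on the 3 E1 arrays and below every gene on the 17 others.

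All 200 genes had each E1 array below each of the 17 other arrays. This was so in 19.4% of the 7523 genes with the same detection, the 200 included, and in 11.0% of the 21080 genes tested, but E1 against the rest chose the 200, so nothing is read from it. Relative to E1, the median log2 difference of the 200 genes was 6.58 in E3 and 6.07 in J. It was 5.81 (F1), 5.87 (F2) and 5.57 (F3) in females, and 6.60 in males. In the 7323 other genes it lay between -0.37 in E3 and -0.04 in F3. The smallest difference of any of the 200 genes was 3.85, in F2. These differences use the measured E1 signals, many of which were not well above background.

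As folds, only 22 genes were measured throughout, with at least 2 probes well above background on all 3 E1 arrays. In these the next lowest stage exceeded E1 by 22.3 to 61.7 times, with a median of 30.0, and the median of the other stages by 29.3 to 145 times, with a median of 60.0. In the other 178 genes at least 1 E1 array lacked such signal, so the fold is a lower bound, for which E1 was set on each array to the dimmest signal marked well above background or to the gene's own signal where that was higher. The next lowest stage was at least 3.15 to 58.3-fold higher than E1 in these genes, with a median of 13.1, and the median stage at least 5.26 to 97.9-fold higher, with a median of 27.9. No probe was well above background on any E1 array in 3 genes. The limit of 200 cut a continuous range, with gaps of 4.41 and 4.40 in the last 2 genes kept and 4.40 in both of the first 2 left out, and the widest gap was 7.45 in the deposited values.

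Many of the 200 genes still gave some signal in E1. At least 2 probes were well above background in 162 genes on the first E1 array, 22 on the second and 146 on the third, whereas these shares were 96.0, 72.7 and 93.6% of all genes with the same detection outside E1. The second E1 array was the one on the slide scanned first. By gene, 22 had such signal on all 3 E1 arrays, 111 on 2, 42 on 1 and 25 on none. Against the random-sequence probes, 85 genes were below their 95th percentile on all 3 E1 arrays and 33 above it on all 3, and all 200 were above it on all 17 other arrays.

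The genes with signal in E1 were those with the highest levels elsewhere. The 22 genes detected on all 3 E1 arrays had E1 levels between 7.46 and 12.06, with a median of 8.89, and a median of 14.88 over the other stages. The 25 detected on none had E1 levels between 2.95 and 4.82, with a median of 3.57, and a median of 9.27 elsewhere. Across the 200 genes, the E1 level and the median level of the other stages had r = 0.92 and Spearman's rho = 0.88, a description over genes that share the same arrays and a selection on the difference of both values. The gene brightest in E1, at 12.06, had a median of 16.93 in the other stages.

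Replicates of E1 varied more in these genes than in others. The median SD over the 3 arrays was 0.67 in the 200 genes and 0.37 in the 7323 others, whereas in E3 it was 0.22 and 0.32. The second E1 array was the lowest of the 3 in 104 of the 200 genes, with a median deviation of -0.29 from the stage mean, compared with 34.7% of the other genes and 0.06. The 200 genes were also far dimmer in E1, with a median level of 5.19 compared with 10.14 in the others. Whether the dim signal or the low detection of the second array is the source of that spread was not tested.

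The low level in E1 was also looked at on an E1 array left out of the choice. The 17 arrays it was set against still chose the genes, so this is a description and no separate support. When the rule was run again without 1 E1 array and the 200 genes with the widest gap were taken, the array left out was below all 17 others in 198, 198 and 200 genes for E1 replicates 1, 2 and 3. Among the genes with the same detection this was the case in 27.0, 25.4 and 25.4%. The median difference between the other arrays and the array left out was 5.65, 5.85 and 5.56, and the smallest in any gene was 2.81, 1.54 and 2.92.

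Single probes, which entered the rule only through their median, mostly had the same lowest stage. The 200 genes had 795 probes, of which 769 (96.7%) were lowest in E1, a share that the choice of the genes largely sets. In 174 genes every probe was lowest in E1. The 26 probes that were not lowest there were all well above background on fewer than 2 arrays of some other stage. The probes of a gene differed in size, and the difference between the other stages and E1 spread over 1.82 log2 units between the probes of a gene at the median, and over 0.22 to 8.07 units at the extremes.

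The gene model with the widest gap, velb9ptf120k87Loc15t5, was at 5.78, 3.26 and 6.15 on the E1 arrays. It was at 14.48, 14.07 and 14.57 in E3, at 13.38, 13.49 and 13.49 in J and at 13.40 and 13.29 in M. In females it was at 12.66, 12.74 and 12.22 in F1, at 12.63, 12.70 and 12.63 in F2 and at 12.69, 12.74 and 11.67 in F3. All 4 of its probes were well above background on E1 replicates 1 and 3 and none on the second. The E3 arrays were above all others and the J and M arrays above all female arrays, by amounts that did not pass the test. The log2 difference was 0.92 between E3 and J (SE 0.52, adjusted p = 0.183 from limma), 0.93 between J and females (SE 0.43, adjusted p = 0.111) and 0.83 between M and females (SE 0.50, adjusted p = 0.206).

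The level within the other stages was compared in 5 contrasts that leave out E1: late embryos with juveniles, juveniles with females, the middle with the beginning and the end with the middle of the female cycle, and males with females, where females are the mean of F1, F2 and F3. A gene was called when limma gave an adjusted p under 0.05 over the 21080 genes tested and a change of at least 1.5-fold. The rule bore on these differences in that each gap between neighbouring stage values had to be smaller than the gap to E1. The fit took 1 spread per gene from all 7 groups, so the E1 arrays entered the SE of each contrast. The median SD of the 200 genes was 0.67 in E1 and between 0.17 (F2) and 0.34 (F3) in the other stages. A fit without all E1 arrays was not run. All 200 genes passed the filter on dim genes, which is separate from the detection that the rule demanded. In 35 genes (17.5%) no contrast was called, compared with 34.4% of all genes tested and 24.3% of those with the same detection. In 61 genes (30.5%) 1 contrast was called, compared with 30.1 and 30.7%, and in 40 (20.0%) 3 or more, compared with 13.8 and 19.7%. The shares with 1 contrast and with 3 or more were thus near those of genes with the same detection, and fewer genes had none.

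Males showed the most calls in the limma fit used here, though not under all of the other settings given below. Of the 200 genes, 103 (51.5%) rose in M relative to females and 4 (2.0%) fell. Among all genes tested 13.4% were higher and 23.8% lower, and among the 7323 other genes with the same detection 22.8% were higher and 21% lower. The median log2 difference of the 200 genes was 0.95, with 173 genes above 0 and a range from -1.52 to 3.20. The median was -0.22 in all genes tested and 0.05 in those with the same detection, of which 41.7 and 52.2% were above 0. The 103 genes that rose had log2 differences between 0.62 and 3.20, with a median of 1.41. Both male arrays were above all 9 female arrays in 101 genes (50.5%, compared with 19.0% of the other genes with the same detection) and below them in 4 (2.0%, compared with 23.8%).

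The number of male calls depended on both arrays. Without the first male array 66 of the 200 genes were higher in M, and without the second 75. Over all 21080 genes tested the number fell too, from 2829 with all arrays to 2052 and 2051. Whether the 200 genes lost more of these calls than other genes was not tested. The slide scanned first was the only one with arrays of males and of adult females. On it the male array exceeded the F1 array in 156 of the 200 genes, with a median of 0.93. Of the other genes with the same detection, 51.6% were higher on the male array, with a median of 0.03. In whole-body RNA, a larger number of cells of a type and more RNA per cell cannot be told apart, and the sex and the mothers' exposure to methyl farnesoate cannot be told apart either.

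Late embryos were more often above juveniles than below them. In E3, 58 genes (29.0%) were called higher than in J and 13 (6.5%) lower, compared with 14.0 and 21.9% of all genes tested and with 18.4 and 28.1% of the other genes with the same detection. The median log2 difference was 0.46, with 142 of the 200 genes above 0. It was -0.23 in all genes tested, of which 41.2% were above 0. The 58 genes that were higher in E3 differed by 0.75 to 3.44 log2 units, with a median of 1.37. The E3 arrays were all above the J arrays in 96 genes (48.0%, compared with 28.0% of the other genes) and all below in 34 (17.0%, compared with 36.2%). Within the slide that held an array of each, 143 of the 200 genes were higher in E3, with a median of 0.62. Of the other genes 48.4% were, with a median of -0.05.

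The largest increase in any contrast was that of velh8ptf004k97Loc13t1 from J to E3. This gene model was at 15.89, 15.17 and 15.42 in E3 and at 12.30, 12.08 and 11.77 in J. In females it was at 9.76, 9.39 and 10.23 in F1, at 11.56, 11.32 and 11.59 in F2 and at 13.69, 12.95 and 12.92 in F3, and the male arrays had 14.21 and 13.92. Its E1 arrays had 3.31, 3.31 and 6.51, and all 4 probes were well above background on the third of them only. The E3 arrays were above all others, and the arrays of F1, F2 and F3 did not overlap. The log2 difference between E3 and J was 3.44 (SE 0.60, adjusted p = 0.000322 from limma), and that between M and females was 2.57 (SE 0.57, adjusted p = 0.00232). From F1 to F2 and from F2 to F3 it was 1.70 in each (SE 0.60), with adjusted p = 0.103 and 0.120 from limma. The change within the cycle thus did not pass the test, whose SE includes the E1 arrays. The SD of this gene was 1.85 in E1 and 0.42, 0.15 and 0.43 in F1, F2 and F3. Over the 6 stages its level spread over 5.70 log2 units, the widest range of the 200 genes.

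Juveniles were more often above females than below them. They had the second highest number of calls after males in the limma fit used here, an order that did not hold under all settings given below. In J, 70 genes (35.0%) were called higher than in females and 12 (6.0%) lower, compared with 14.4 and 14.0% of all genes tested and with 16.5 and 16.8% of those with the same detection. The median log2 difference was 0.30, with 127 genes above 0, compared with 0.06 in all genes tested, of which 53.2% were above 0. The 70 genes that were higher in J differed by 0.68 to 2.88 log2 units. All J arrays were above all 9 female arrays in 71 genes (35.5%, compared with 15.0% of the other genes) and below in 14 (7.0%, compared with 19.4%). Both J and M were called above females in 48 genes (24.0%), a count that rests on shared female arrays, compared with 5.07% of all genes tested and 8.48% of those with the same detection. M above females and E3 above J were called together in 37 genes (18.5%, compared with 4.69 and 8.9%). E3 above J and J above females were called in 18 (9.0%, compared with 2.5 and 2.99%), and all 3 in 13 (6.5%, compared with 1.23 and 2.18%).

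**Figure D2:**
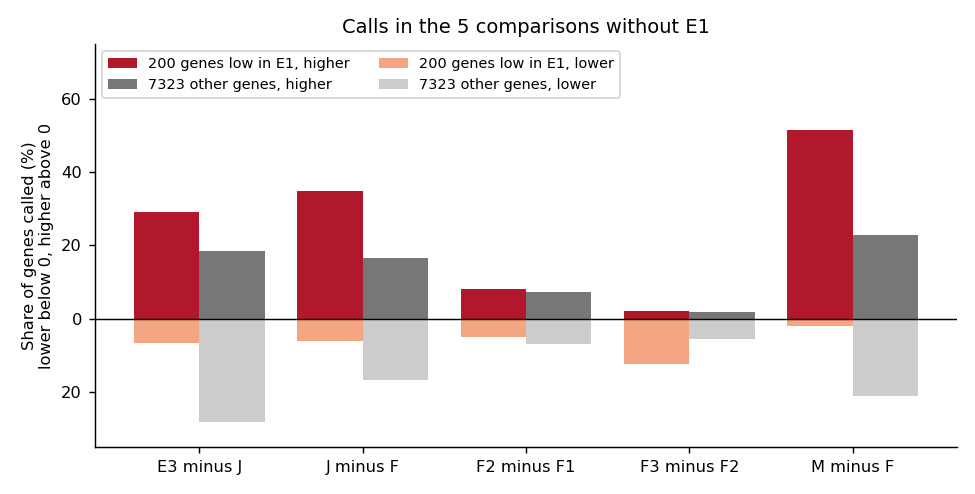
Share of genes called in each of the 5 contrasts, for the 200 genes low in E1 and the 7323 other genes with the same detection, with genes higher in the first stage drawn above 0 and lower ones below. In M minus F, 51.5% of the 200 genes were higher and 2.0% lower, whereas the other genes divided into 22.8 and 21%.

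Differences within the female cycle were fewer. From F1 to F2, 16 genes (8.0%) rose and 10 (5.0%) fell, compared with 5.2 and 3.98% of all genes tested and with 7.24 and 6.9% of those with the same detection, and the median log2 difference was 0.00. These shares were near the background, and the F2 arrays were all above the F1 arrays in 47 genes (23.5%, compared with 21.4% of the other genes) and all below in 44 (22%, compared with 31.1%). From F2 to F3, 4 genes (2.0%) rose and 25 (12.5%) fell, compared with 1.13 and 5.93% of all genes tested and with 1.78 and 5.56% of those with the same detection. The median log2 difference from F2 to F3 was -0.21 in the 200 genes and 0.18 in all genes tested. Above 0 were 73 of the 200 genes and 64.0% of all genes tested. The F3 arrays were all below the F2 arrays in 74 of the 200 genes (37.0%, compared with 15.8% of the other genes) and all above in 28 (14.0%, compared with 40.4%). A contrast of the cycle was called in 51 genes (25.5%, compared with 14.9% of all genes tested and 19.6% of those with the same detection), and 3 genes (1.5%, compared with 0.897 and 1.17%) rose from F1 to F2 and fell from F2 to F3.

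The number of genes that fell from F2 to F3 depended on single arrays. It was 14, 11 and 13 without F2 replicate 1, 2 or 3, 13 without the second F3 array and 12 without the third. Over all 21080 genes tested the number fell too, from 1251 with all arrays. It was 910, 898 and 967 without these F2 arrays, and 927 and 902 without these F3 arrays. Without the first F3 array, 28 of the 200 genes and 1196 of all genes tested fell. Whether the 200 genes lost more calls than other genes was not tested. The F3 arrays also spread more in the 200 genes, with a median SD of 0.34, than in the other genes, with 0.19. The third F3 array was the lowest of the 3 in 96 of the 200 genes and in 30.1% of the others. Within slides, F3 was lower than F2 in 144 of the 200 genes on the slide with the third F3 array, with a median of -0.38. On the slide with the first and second F3 arrays it was lower in 118, with a median of -0.09. Of the other genes with the same detection, 35.9 and 32.5% were lower on these slides, with medians of 0.21 and 0.18.

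The largest decreases were both from F2 to F3. The gene model dmag2vel4f4xincok59Loc940t31 was at 13.66, 13.58 and 13.35 in F2 and at 11.19, 9.43 and 9.65 in F3. It was at 13.36, 12.72 and 13.10 in F1, at 12.47, 12.75 and 12.48 in E3, at 12.21, 12.39 and 12.61 in J and at 10.24 and 11.77 in M, and the E1 arrays had 6.73, 4.18 and 5.03. The F3 arrays lay below all arrays of E3, J, F1 and F2 and overlapped those of males. The log2 difference between F3 and F2 was -3.45 (SE 0.55, adjusted p = 0.000688 from limma).

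The gene model velb9ptf078k57Loc21t3 was at 11.84, 11.52 and 11.23 in F2 and at 9.36, 8.16 and 8.46 in F3. It was at 10.61, 10.55 and 10.77 in F1, at 11.57, 12.00 and 11.75 in E3, at 10.25, 10.83 and 10.51 in J and at 8.16 and 9.73 in M, and the E1 arrays had 3.88, 2.89 and 4.00. The F3 arrays again lay below all arrays of E3, J, F1 and F2 and overlapped those of males. The log2 difference between F3 and F2 was -2.87 (SE 0.39, adjusted p = 0.000196 from limma). In males it was lower than in females by the test, with a log2 difference of -1.33 (SE 0.38, adjusted p = 0.0113), and it was higher in E3 than in J, with a difference of 1.25 (SE 0.39, adjusted p = 0.0207).

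**Figure D3:**
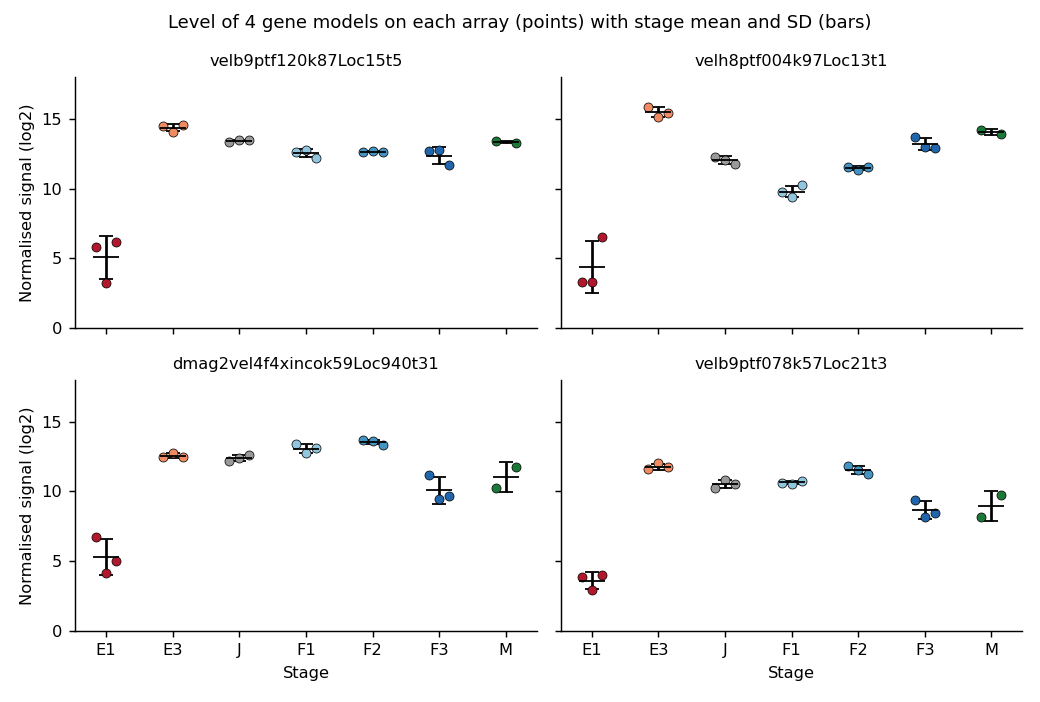
Normalised log2 signal of 4 gene models of the 200 on each array, by stage, with the stage mean and SD as bars (n = 3, and n = 2 in M). The E1 arrays lie below all others in each, velh8ptf004k97Loc13t1 is highest in E3, and in dmag2vel4f4xincok59Loc940t31 and velb9ptf078k57Loc21t3 the F3 arrays lie below the F2 arrays.

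Late embryos and males were most often the stage of the highest mean, as a description with no test. The highest mean was in E3 in 82 of the 200 genes (41.0%), in M in 69 (34.5%), in F1 in 17, in F2 in 16, in J in 14 and in F3 in 2 (1.0%). In the 7323 other genes with the same detection, E3 was highest in 26.3%, M in 18.3% and F3 in 25.7%. The lowest mean outside E1 was in F3 in 72 genes (36.0%), in F1 in 45, in F2 in 32, in J in 24, in E3 in 23 and in M in 4 (2.0%), whereas in the other genes it was in E3 in 31.1%, in F3 in 16.7% and in M in 16.9%. The highest mean was in E3 or M and the lowest outside E1 in a female stage in 119 genes (59.5%), compared with 30.4% of the others. Both E3 and M had means above those of all 3 female stages in 107 genes and in 22.3% of the others.

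**Figure D4:**
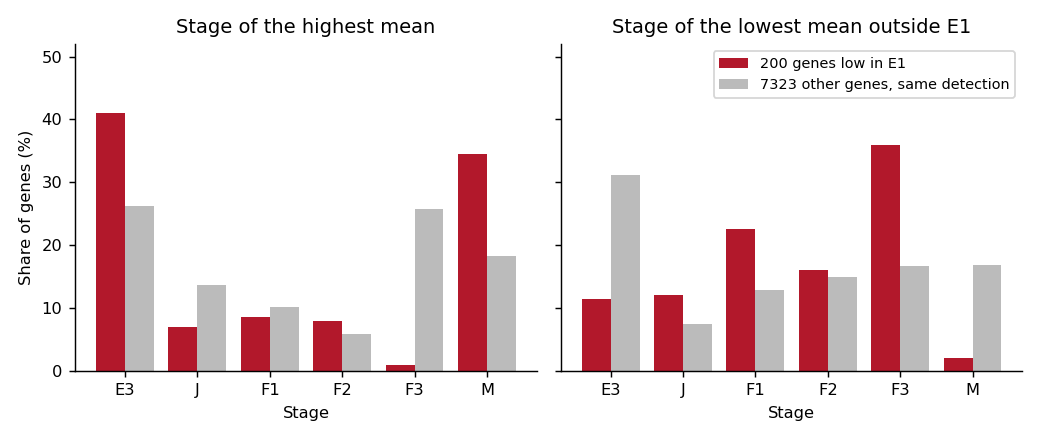
Share of genes whose highest mean (left) or lowest mean outside E1 (right) fell in each of the other 6 stages, for the 200 genes low in E1 and the 7323 other genes with the same detection. E3 and M together held the highest mean of 151 of the 200 genes, and F3 held the highest mean of 2 and the lowest of 72.

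The profiles differed by the stage of the highest mean. Relative to each gene's mean over the 6 stages, the 82 genes highest in E3 had medians of 1.20 in E3, 0.36 in M and 0.27 in J, and of -0.58, -0.49 and -0.73 in F1, F2 and F3. The 69 genes highest in M had medians of 1.04 in M and 0.17 in E3, and between -0.31 and -0.19 in J and the female stages. The 17 genes highest in F1 had a median of 0.76 in F1, 0.40 in F2 and -0.70 in F3. The 14 genes highest in J had a median of 0.85 in J and of -0.71 and -0.72 in F2 and F3. The groups were formed from the values they describe.

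The spread among the other stages was mostly smaller than the drop to E1. The choice of the widest gaps to E1 favours this, so nothing is read from it. The range over the 6 stages was between 0.38 and 5.70 log2 units in the 200 genes, with a median of 2.03, and it was under 1 unit in 12 genes and over 3 in 31. The difference between the next lowest stage and E1 was between 3.85 and 7.31 units, with a median of 5.04. In 1 gene the range over the other stages exceeded it. The 7323 other genes had a median range of 1.62.

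**Figure D5:**
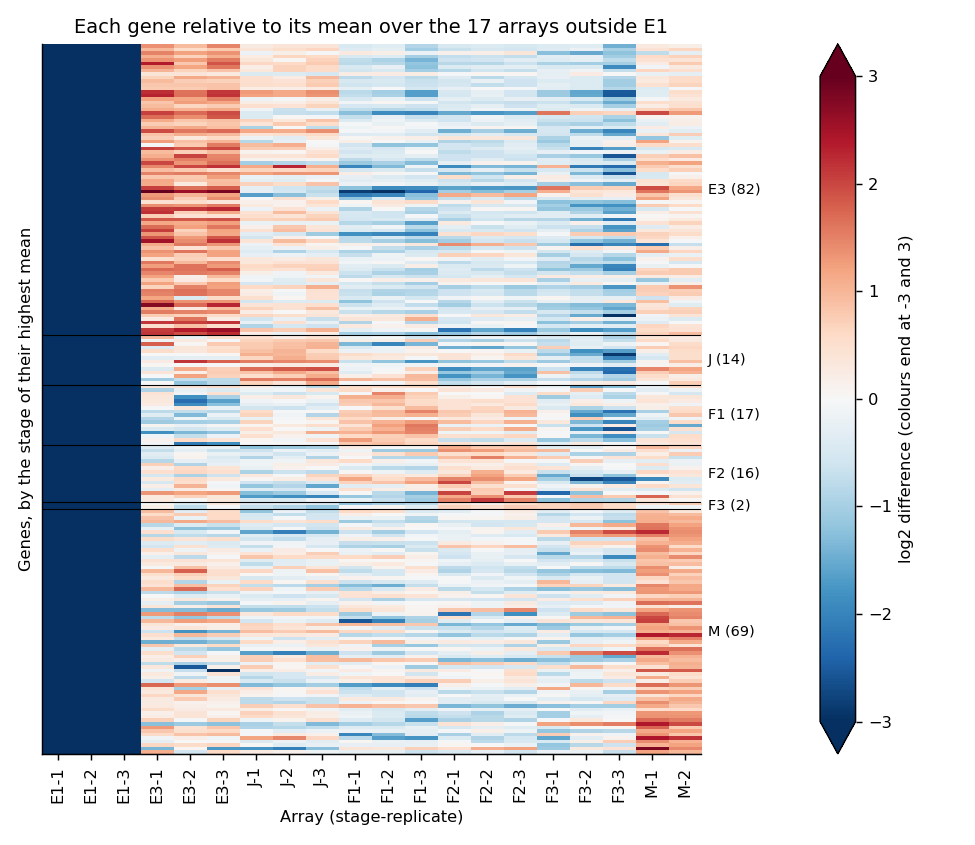
The 200 genes (rows, grouped by the stage of their highest mean, with the number of genes in parentheses) on the 20 arrays (columns), as log2 difference from the mean of the gene over the 17 arrays outside E1, with colours that end at -3 and 3. All genes are at the blue end on the 3 E1 arrays, and the 82 genes highest in E3 and the 69 highest in M are mostly below their mean in the female stages.

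The calls were also counted beyond the limit of 200. Of the 1451 genes that met the rule before ranking, those ranked 201 to 500 by gap had 46.7% called higher and 4.33% lower in M than in females, those ranked 501 to 1000 had 43.2 and 3.4%, and those ranked 1001 to 1451, with gaps under 1.81, had 23.9 and 6.65%. Genes with the same detection outside the 200 had 22.8 and 21%. For E3 relative to J, the shares called higher were 26.7, 29.6 and 22% in these 3 groups, and for J relative to females they were 29.0, 30.0 and 14.2%, compared with backgrounds of 18.4 and 16.5%. The shares that fell from F2 to F3 were 20.3, 17.6 and 5.54%, compared with a background of 5.56%, and the share was 12.5% in the 200 genes with the widest gap. In the last group, the shares higher in M, higher in J and lower in F3 were thus near the background. Its shares called lower stayed under the background, with 6.65% in M relative to females, compared with 21%. They were 6.21% in E3 relative to J and 8.87% in J relative to females, compared with 28.1 and 16.8%. The background genes include these 3 groups. The median E1 level was 5.23, 5.76 and 8.24 in the 3 groups.

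The 200 genes were spread over the 4 transcript assemblies from which the gene models came. They held 36.5, 26.5, 21.5 and 15.5% of the 200 genes, compared with 31.7, 27.5, 23.2 and 17.6% of the genes with the same detection, for the models whose names start with velb9, velh8, dmag2vel4 and veln4. By assembly and locus number the genes came from 192 loci. At 7 loci more than 1 of the 200 genes was found, with 15 genes in all, and their levels over the 17 arrays outside E1 correlated with r between 0.81 and 1.00. The locus of 23 genes had further models on the array. Models of a locus can share sequence, so their values may not be separate measurements.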

How the data were processed

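Total RNA was labelled with Cy3, hybridised to a custom Agilent array and read with Agilent Feature Extraction 10.5, which gave the deposited processed signal intensity per spot. The authors quantile-normalised these intensities and centred each probe on its median over all arrays, and the deposited log2 values of that kind picked the genes. Levels and tests started from the processed signals: spots marked as outliers were left out, spots of a probe averaged, log2 values quantile-normalised (limma 3.58.1, R 4.3.3), and the median taken over the probes of a gene. Genes with at least 2 probes above the 95th percentile of the random-sequence probes on every array of at least 1 stage were tested, in 1 limma fit of 20 arrays and 7 groups with Benjamini-Hochberg adjustment. Scripts were tested on simulated data. The number of arrays limits the precision.

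The members and lists were chosen with earlier results of these data known. As the tables used here named none of the gene models, 4 were named by rule: the widest gap, the largest called increase other than that one and the 2 largest called decreases. Lists by keyword were not applied. Replicate numbers did not pair the samples. Alternatives covered the scaling, background correction, filter, probe summary, blocks, test and arrays left out. Leaving out the slide scanned first was chosen after seeing the data.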

Additional observations from a re-analysis of the deposited data

How the results depend on the processing

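With other values, summaries or demands in the rule, between 136 (normexp background correction) and 198 of the 200 genes were picked again, 161 without the slide scanned first, and 163 to 199 when 1 array was left out. The counts of calls are given in the order of the report, higher before lower. A 75th percentile shift gave 82 and 6 in E3 relative to J, 7 and 16 from F2 to F3, and 76 and 7 in M. Over all 21080 genes tested these were 3580 and 3681, 251 and 1161, and 3293 and 3668. Normexp gave 25 higher from F1 to F2, 13 higher from F2 to F3 and 7 lower in M. Over all genes tested these were 1107, 300 and 4588. With all genes tested, without the filter, 13 fell from F2 to F3, compared with 1141 of all 41316. With the slide as a block 1 was lower in M, compared with 4426 of all 21080. The methods' t-test at their unadjusted threshold gave 34 and 3 for E3, 35 and 5 for J and 6 higher from F1 to F2. It gave 1 and 3 from F2 to F3, and 48 and 0 for M. Over all genes tested these were 965 and 1156, 1355 and 1604, 611, 259 and 499, and 756 and 2544. The same t-test adjusted gave 66 and 15 for E3, 12 and 16 from F2 to F3, and 75 and 0 for M. Over all genes tested these were 2704 and 3283, 1087 and 1487, and 1769 and 4324. By neither threshold of the t-test was the share that fell from F2 to F3 clearly above that of all genes tested. Without the slide scanned first there were 19 lower in J than in females and 15 and 45 from F2 to F3. Over all genes tested these were 4456, and 1643 and 2268. For these changes of counts the cause was not tested. Of 138 counts under settings other than leaving out 1 array, 114 were within 1.5 times the count reported.

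Leaving out 1 array gave 47 to 73 higher and 6 to 16 lower in E3 than in J, 53 to 81 and 8 to 17 in J than in females, 11 to 22 and 7 to 15 from F1 to F2, 4 to 10 and 11 to 35 from F2 to F3, and 66 to 117 and 1 to 6 in M than in females. Beyond the arrays named in the report, some counts moved by over 1.5 times. Genes lower in E3 numbered 8 without the third E3 array and 6 without the second J array. Genes that rose from F2 to F3 numbered 9 and 10 without E1 replicate 2 or 3. Without the first male array 1 gene was lower in M. Over all genes tested these were 4240 and 3914, 440 and 286, and 3347, compared with 4613, 239 and 5019 with all arrays. The replicate numbers paired no samples, with correlations of deviations between -0.33 and 0.27 among arrays of the same number, and 5 of 20 arrays were closest to one of their own number. With the replicate number as a block the counts were 58 and 12, 68 and 11, 16 and 10, 4 and 19, and 101 and 3. Over all genes tested these were 2870 and 4483, 2943 and 2924, 1036 and 765, 194 and 1161, and 2621 and 4658.

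The scaling moved all genes. With the 75th percentile shift the median over all genes tested changed from -0.23 to 0.04 in E3 minus J, from 0.05 to -0.13 in F2 minus F1 and from -0.22 to 0.15 in M minus F. Relative to it, the 200 genes stood at 0.69 in E3 minus J under both scalings, at 1.17 and 0.59 in M minus F, and at -0.04 and 0.11 in F2 minus F1. The share of higher among called genes went from 81.7 to 93.2% in E3 minus J and from 13.8 to 30.4% in F3 minus F2 (27.1% with normexp). The E1 level lies near the background, so its folds depend on the lowest signals.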
